A study of Mus musculus with 20 samples.

Results

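In these data 8 autosomal genes, Cd24a, Slco1a6, Steap1, Gchfr, Rbpms2, Vgll2, Sult2a3 and Gkn2, had higher transcript levels in Cxxc1-null than in WT spermatocytes. Their levels are described here in every library. They are 8 of 23235 genes in the expression table, and they lie on 6 autosomes (chromosomes 2, 5, 6, 7, 9 and 10). They were chosen by these measured values, Cxxc1-null FPKM above WT FPKM at 1 or more stages, so the genotype difference of these genes is given as a description, with no test. The samples were spermatocytes, the cells that pass through male meiosis, isolated with a cell sorter from adult C57BL/6 male testes. Each of 3 stages, pachytene, diplotene and meiosis II, was sampled with 2 libraries per genotype and 500 cells per library, which gives 12 RNA libraries and n = 2 in every group. The Cxxc1 allele, any Cre driver and the number of animals behind a library are not given in the sources used here. If the 2 libraries of a group shared an animal, the p-values measure only technical spread. H3K4me3 libraries of the series were not analysed here.

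Cxxc1 encodes a zinc finger protein that binds unmethylated CpG dinucleotides, the C followed by G pairs that are dense in many promoters. It is a subunit of the SETD1 complexes, which place the H3K4me3 mark on promoter chromatin. In prophase of the first meiotic division, chromosomes pair and recombine in pachytene, begin to separate in diplotene, and then enter the divisions. The 8 genes have unrelated roles. Cd24a, Slco1a6 and Steap1 encode membrane proteins, Gchfr and Sult2a3 encode a regulator and an enzyme of small-molecule metabolism, Rbpms2 and Vgll2 encode regulators of RNA and of transcription, and Gkn2 encodes a secreted protein of the stomach lining.

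RefSeq promoter windows, 250 bases before to 50 bases after the gene start on GRCm38.p6, were at hand for 7 of the 8 genes, and Cd24a had no window. Their CpG content differed widely. Rbpms2 had 48 CpG dinucleotides in its 300-base window, Steap1 33, Gchfr 31 and Vgll2 21, all above the upper quartile of 20 over 32817 promoter windows of this length. Gkn2 had 6, near the median of 7. Slco1a6 and Sult2a3 had 1 each, below the lower quartile of 3. Only 1.22% of all windows held as many CpG dinucleotides as that of Rbpms2, and 14.1% held no more than those of Slco1a6 and Sult2a3. The observed over expected CpG ratio was 0.927 in Rbpms2, 0.923 in Gchfr, 0.845 in Steap1 and 0.676 in Vgll2, against 0.0958 in Slco1a6, 0.129 in Sult2a3 and 0.358 in Gkn2. The genes raised in Cxxc1-null libraries included both CpG-dense and CpG-poor promoters. The last 200 bases before the start are shown for Rbpms2 and Gchfr, with dense windows, and for Slco1a6 and Sult2a3, with the sparsest, to show this contrast. Steap1, whose window is denser than that of Gchfr, is not shown. Each runs 5′ to 3′ on the strand of the gene, and capitals mark CpG dinucleotides. The Rbpms2 stretch is chr9:65630382-65630581 (plus strand), that of Gchfr is chr2:119167588-119167787 (plus), that of Slco1a6 is chr6:142186150-142186349 (minus) and that of Sult2a3 is chr7:14123049-14123248 (minus).
Rbpms2: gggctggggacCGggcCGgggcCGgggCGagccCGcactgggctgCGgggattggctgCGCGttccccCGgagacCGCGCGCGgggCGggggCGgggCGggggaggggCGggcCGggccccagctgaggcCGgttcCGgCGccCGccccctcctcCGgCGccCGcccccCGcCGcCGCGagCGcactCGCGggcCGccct
Gchfr: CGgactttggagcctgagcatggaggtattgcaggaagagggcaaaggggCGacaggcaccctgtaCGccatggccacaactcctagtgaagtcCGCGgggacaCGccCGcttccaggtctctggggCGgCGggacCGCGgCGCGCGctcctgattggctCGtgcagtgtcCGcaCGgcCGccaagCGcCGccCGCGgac
Slco1a6: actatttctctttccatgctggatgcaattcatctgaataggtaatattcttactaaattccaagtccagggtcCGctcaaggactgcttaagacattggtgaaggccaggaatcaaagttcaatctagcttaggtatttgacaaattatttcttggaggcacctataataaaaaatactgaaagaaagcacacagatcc
Sult2a3: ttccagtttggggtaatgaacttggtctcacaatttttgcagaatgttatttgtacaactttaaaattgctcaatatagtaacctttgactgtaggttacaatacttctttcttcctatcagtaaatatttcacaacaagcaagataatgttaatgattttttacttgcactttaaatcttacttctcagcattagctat
The Rbpms2 stretch holds 33 CpG dinucleotides, the Gchfr stretch 22, the Slco1a6 stretch 1 and the Sult2a3 stretch 0.

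Short motifs were searched on both strands of the same 7 windows. The core promoter motif TATAAA was found in 1, that of Gkn2, against 13.6% of all windows. TGACG (from the cAMP response element) was found in 1, that of Vgll2, against 20.8%. CCAAT was found in 4 (Slco1a6, Gchfr, Rbpms2 and Gkn2) against 37.4%, and AACNG (core of a MYB site) in 5 against 80.3%. No motif was present in all 7 windows.

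**Figure D1:**
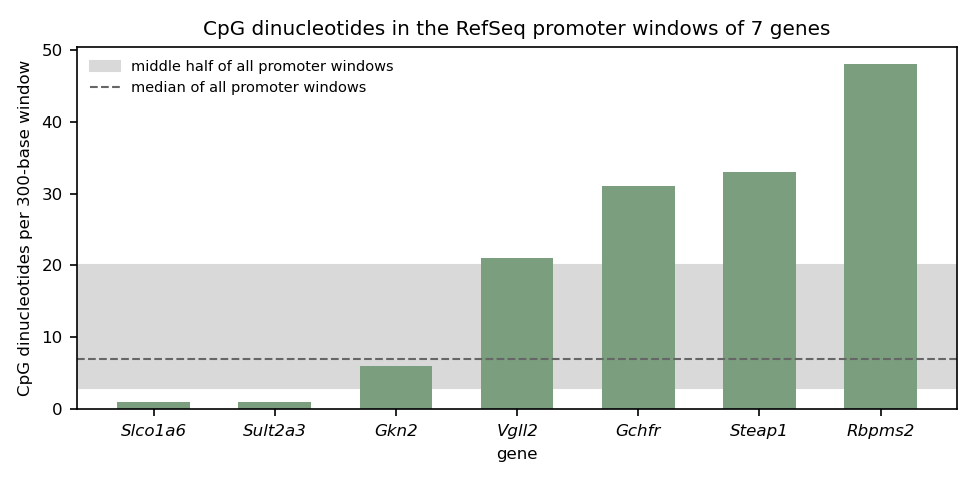
CpG dinucleotides per 300-base RefSeq promoter window (bars) for 7 of the genes, with the median (dashed line, 7) and the span from lower to upper quartile (grey, 3 to 20) of 32817 windows. Slco1a6, Sult2a3 and Gkn2 lie below the median and Vgll2, Gchfr, Steap1 and Rbpms2 above the upper quartile.

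Levels are given as FPKM (fragments relative to transcript length and to the total of the library), so they can be compared between genes. All 8 genes passed the filter of 1 FPKM in at least 2 libraries, but Slco1a6, Vgll2, Sult2a3 and Gkn2 passed it only through Cxxc1-null libraries, since none of the 6 WT libraries reached 1 FPKM for these 4. At each of the 3 stages both Cxxc1-null libraries exceeded both WT libraries for all 8 genes, which is what the choice favoured. Among all 12956 genes tested, 24.1% showed that order in pachytene, 30.4% in diplotene and 30.1% in meiosis II. The genotype difference of each gene is given on the log2(FPKM + 1) scale with its standard error (SE) from a limma fit over all genes. This scale understates the change of genes with low levels, so the ratio of mean FPKM is given too.

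**Figure D2:**
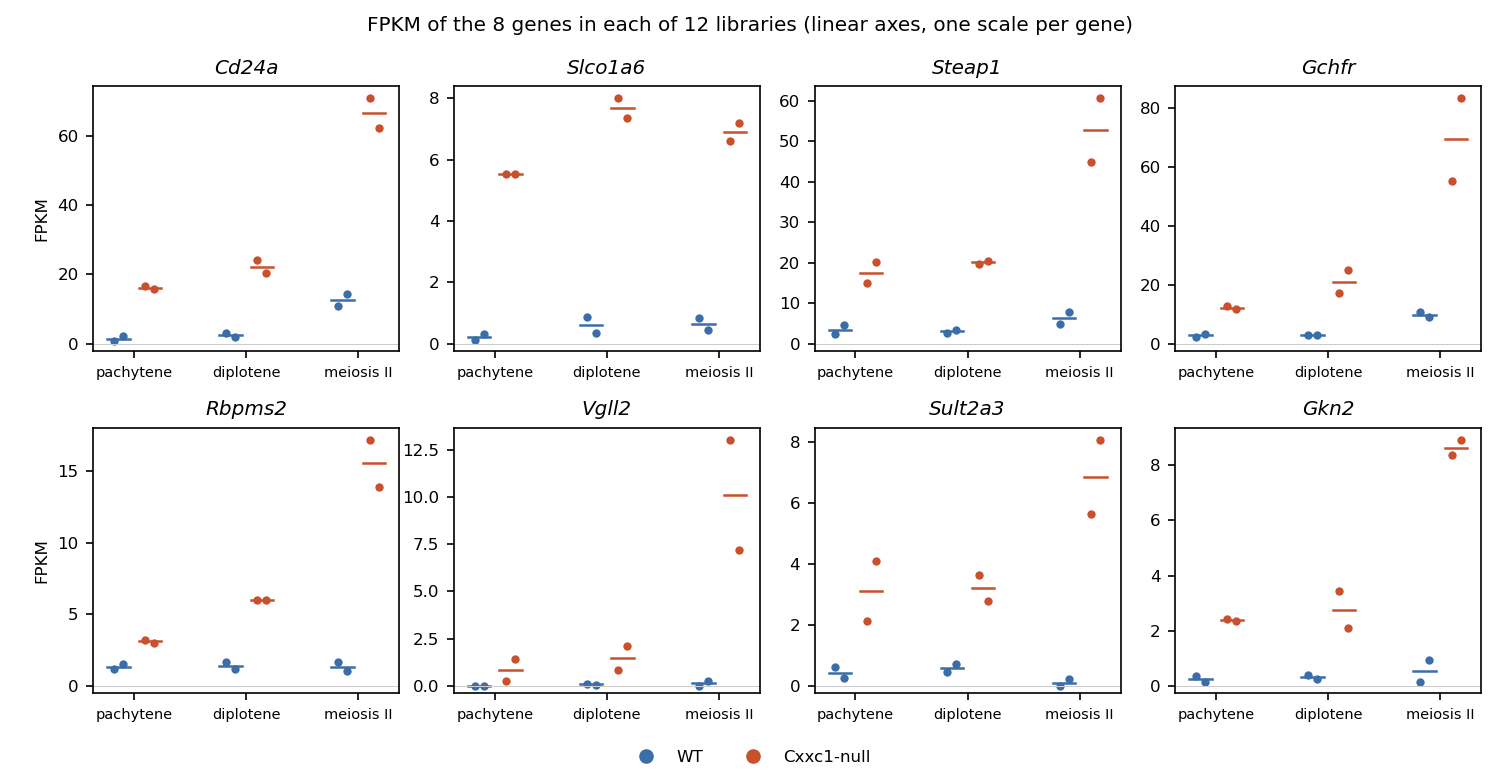
FPKM (linear axis from 0, one scale per gene) of the 8 genes by stage, with each library as a point and each mean of 2 libraries as a short line, WT in blue and Cxxc1-null in orange. Every Cxxc1-null library lies above both WT libraries of its stage, and 7 of the 8 genes have their highest Cxxc1-null mean in meiosis II.

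Cd24a encodes a small, heavily glycosylated surface protein held by a glycosylphosphatidylinositol anchor. In pachytene its level was 0.682 and 2.15 FPKM in WT and 16.6 and 15.7 FPKM in Cxxc1-null libraries. In diplotene it was 3.003 and 2.01 FPKM in WT and 24.1 and 20.3 FPKM in Cxxc1-null, and in meiosis II 10.99 and 14.5 FPKM against 70.9 and 62.4 FPKM. The lowest Cxxc1-null value of Cd24a, in pachytene, was therefore above its highest WT value, in meiosis II. The ratio of means was 11.4 in pachytene, 8.87 in diplotene and 5.24 in meiosis II. The log2 difference went the same way, at 2.90 ± 0.30, 2.74 ± 0.30 and 2.31 ± 0.30. Cd24a was 1 of the pair of genes, with Slco1a6, whose difference was not greatest in meiosis II, where its WT level was also highest.

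Slco1a6 encodes an organic anion transporter of the plasma membrane. WT libraries held 0.115 and 0.309 FPKM in pachytene, 0.876 and 0.356 in diplotene and 0.828 and 0.437 in meiosis II. Cxxc1-null libraries held 5.52 and 5.53 FPKM in pachytene, 8.002 and 7.35 in diplotene and 6.61 and 7.19 in meiosis II. Within the Cxxc1-null genotype both diplotene libraries were above both pachytene and both meiosis II libraries. The ratio of means was 26.0 in pachytene, 12.5 in diplotene and 10.9 in meiosis II, while the log2 difference was 2.43 ± 0.22, 2.44 ± 0.22 and 2.28 ± 0.22. Slco1a6 alone among the 8 had its highest Cxxc1-null mean in diplotene.

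Steap1 belongs to a family of membrane proteins related to metalloreductases. WT libraries had 2.37 and 4.61 FPKM in pachytene, 2.74 and 3.39 in diplotene and 4.82 and 7.72 in meiosis II. In Cxxc1-null libraries it had 14.9 and 20.2 FPKM in pachytene, 19.7 and 20.5 in diplotene and 44.8 and 60.7 in meiosis II. Pachytene and diplotene overlapped within the Cxxc1-null genotype, and meiosis II stood above both. The ratio of means was 5.02, 6.55 and 8.41, and the log2 difference 2.08 ± 0.31, 2.38 ± 0.31 and 2.90 ± 0.31.

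Gchfr encodes the feedback regulator that binds GTP cyclohydrolase, the first enzyme of tetrahydrobiopterin synthesis. WT libraries had 2.35 and 3.41 FPKM in pachytene, 3.01 and 2.80 in diplotene and 10.6 and 8.96 in meiosis II. Cxxc1-null libraries had 12.7 and 11.8 FPKM, 17.0 and 25.1, and 55.3 and 83.4 at the same stages. The 83.4 FPKM of Cxxc1-null meiosis II replicate 2 was the highest value of any of the 8 genes. The ratio of means was 4.25, 7.26 and 7.08, with log2 differences of 1.78 ± 0.27, 2.48 ± 0.27 and 2.68 ± 0.27.

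Sult2a3 encodes a cytosolic sulfotransferase of the subfamily that acts on steroids and bile acids. It was listed at 0 in WT meiosis II replicate 1 and at 0.204 FPKM in replicate 2, its lowest WT stage. WT pachytene had 0.612 and 0.246 FPKM and WT diplotene 0.435 and 0.707. Cxxc1-null libraries had 2.13 and 4.09 FPKM in pachytene, 3.62 and 2.79 in diplotene and 5.64 and 8.06 in meiosis II. By ratio of means Sult2a3 differed 7.25, 5.62 and 67.0 times, the last over a WT mean of 0.102 FPKM, and the log2 difference was 1.49 ± 0.28, 1.42 ± 0.28 and 2.82 ± 0.28. Sult2a3 sits among near-identical Sult2a copies, so how fragments were divided between them is uncertain.

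Rbpms2 encodes an RNA-binding protein known from smooth muscle and heart. Its WT level was flat at 1.14 and 1.52 FPKM in pachytene, 1.63 and 1.17 in diplotene and 1.68 and 0.991 in meiosis II. Its Cxxc1-null level climbed from 3.19 and 3.01 FPKM in pachytene to 5.98 and 5.98 in diplotene and 17.2 and 13.9 in meiosis II, with no overlap between stages. The ratio of means therefore went from 2.33 to 4.28 and 11.6, and the log2 difference from 0.82 ± 0.23 to 1.55 ± 0.23 and 2.83 ± 0.23.

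Vgll2 encodes a vestigial-like cofactor of TEAD transcription factors, known from skeletal muscle. It was listed at 0 in both WT pachytene libraries, at 0.113 and 0.0523 FPKM in WT diplotene, and at 0 and 0.265 FPKM in WT meiosis II. Cxxc1-null libraries had 0.237 and 1.43 FPKM in pachytene, 0.835 and 2.12 in diplotene and 13.0 and 7.21 in meiosis II. The spread between the 2 Cxxc1-null libraries was wide at every stage, and only in meiosis II did both exceed 1 FPKM. The log2 difference was 0.79 ± 0.36, 1.14 ± 0.36 and 3.25 ± 0.36. Mean FPKM differed 17.9 times in diplotene and 76.4 in meiosis II, over WT means of 0.0826 and 0.132 FPKM, and none is given for pachytene, where WT was listed at 0.

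Gkn2 encodes a gastrokine, a secreted protein with a BRICHOS domain. WT libraries held 0.349 and 0.140 FPKM in pachytene, 0.373 and 0.231 in diplotene and 0.125 and 0.932 in meiosis II. Cxxc1-null libraries held 2.44 and 2.33 FPKM, 3.45 and 2.09, and 8.38 and 8.92 at these stages. The 2 Cxxc1-null meiosis II libraries were close to each other and above every other library. Mean FPKM differed 9.74, 9.17 and 16.3 times, and the log2 difference was 1.45 ± 0.27, 1.51 ± 0.27 and 2.71 ± 0.27.

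Over the 8 genes the median log2 difference was 1.64 in pachytene, 1.96 in diplotene and 2.76 in meiosis II, while the median over all 12956 tested genes was 0.04, 0.09 and 0.02. On this scale the difference was greatest in meiosis II for 6 of the 8, but by ratio of means Gchfr was greatest in diplotene. With a pseudocount of 0.1 in place of 1 the medians were 2.73, 2.80 and 3.39. Cxxc1 itself stood at 64.6% of its WT mean in Cxxc1-null pachytene, 57.1% in diplotene and 20.2% in meiosis II. These transcript levels do not show whether functional Cxxc1 was absent at a given stage. A link between the Cxxc1 level and the differences of the 8 genes was not tested. Genes reaching 1 FPKM numbered between 9838 and 11624 per library.

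**Figure D3:**
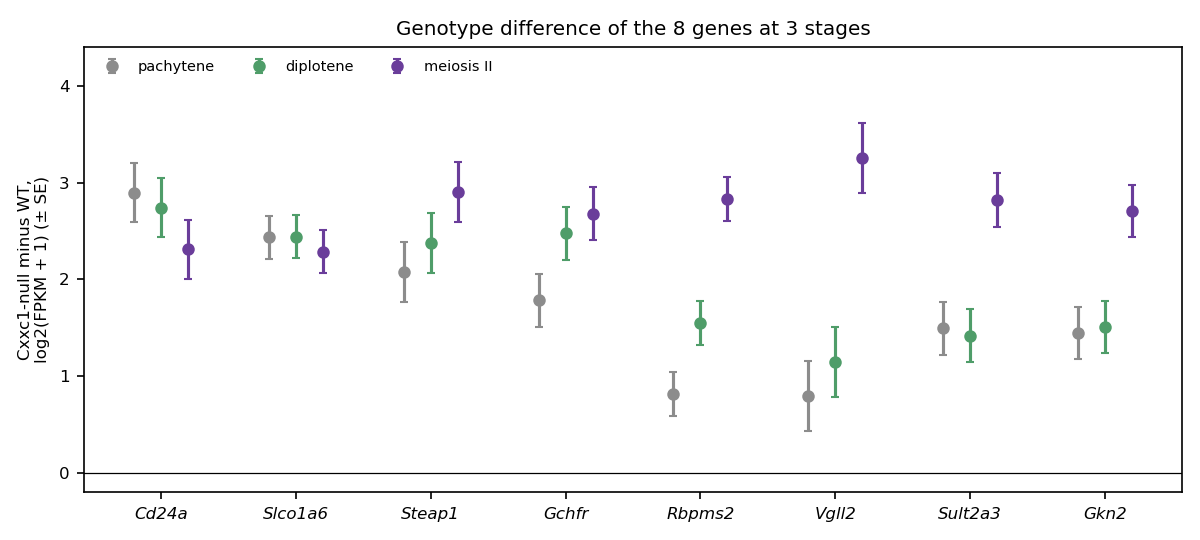
Cxxc1-null minus WT difference on the log2(FPKM + 1) scale (points, with SE bars) for each gene at pachytene (grey), diplotene (green) and meiosis II (purple). Rbpms2, Vgll2, Sult2a3 and Gkn2 lie between 0.79 and 1.55 in the first 2 stages and between 2.71 and 3.25 in meiosis II, while Cd24a and Slco1a6 are no greater in meiosis II.

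Mean FPKM was also placed among that of all tested genes within each group. In WT pachytene the 8 lay between the 0th percentile (Vgll2, listed at 0) and the 36.4th (Steap1), and in Cxxc1-null pachytene between the 12.7th (Vgll2) and the 66.2nd (Steap1). In WT meiosis II Cd24a lay at the 59.1st percentile, Gchfr at the 54.0th and Steap1 at the 45.9th, and the other 5 at or under the 17.9th (Rbpms2). In Cxxc1-null meiosis II the 8 lay between the 48.2nd percentile (Sult2a3) and the 84.5th (Gchfr). Cd24a and Gchfr were thus above the middle of the tested genes in WT meiosis II already. The order of levels in Cxxc1-null meiosis II put Gchfr (69.4 FPKM), Cd24a (66.6) and Steap1 (52.7) first, and the libraries of Gchfr overlapped those of both others. Rbpms2 (15.5 FPKM) and Vgll2 (10.1) came next, with no overlap between them. Gkn2 (8.65), Slco1a6 (6.90) and Sult2a3 (6.85) were lowest. The libraries of Vgll2 overlapped those of Gkn2 and Sult2a3, and those of Slco1a6 lay within the range of Sult2a3.

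The stage course within WT describes the levels of these genes in WT libraries. The WT libraries also took part in the choice of genes, so this measure is not wholly independent of it. Sums of 12 Sertoli cell marker genes, described further below, were 8.15 and 10.4 FPKM in WT diplotene and 246 and 328 FPKM in WT meiosis II. The part of accompanying cells in the WT steps was not tested. Slco1a6, Vgll2, Sult2a3 and Gkn2 were under 1 FPKM in all 6 WT libraries, where a step on this scale is small whatever its ratio, so their not passing says little and the counts over the 8 are a description only. From pachytene to diplotene, 0 of 8 passed limma at an adjusted p under 0.05, with 0 of 8 at an unadjusted p under 0.05. Of all tested genes 26.5% passed, 9.08% higher and 17.4% lower. Cd24a had 0.59 ± 0.30 (limma adjusted p = 0.175), and without WT pachytene replicate 2 it passed with 1.04 (limma adjusted p = 0.020). The median of the 8 was 0.09, against -0.11 over all tested genes. From diplotene to meiosis II, where 45% of all genes passed (26.1% higher and 18.9% lower), 2 of the 8 rose and 0 fell. Cd24a went up by 1.97 ± 0.30 (5.08 times in mean FPKM, limma adjusted p = 0.00048), and Gchfr by 1.46 ± 0.27 (3.37 times, limma adjusted p = 0.0015). Both WT meiosis II libraries exceeded both WT diplotene libraries for these genes. Steap1 was near the threshold at 0.81 ± 0.31 (limma adjusted p = 0.056). It passed without WT pachytene replicate 1 or 2 and without WT meiosis II replicate 1 (limma adjusted p = 0.031, 0.032 and 0.045). Sult2a3 had -0.51 ± 0.28 (limma adjusted p = 0.16), and the other 4 lay between -0.05 and 0.18.

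Within Cxxc1-null cells the step from diplotene to meiosis II is described without a test, since Cxxc1-null levels chose the genes. In 7 of the 8 both meiosis II libraries exceeded both diplotene libraries, and Slco1a6 was lower in both. The rise in mean FPKM was 6.85 times for Vgll2, 3.29 for Gchfr, 3.13 for Gkn2, 2.998 for Cd24a, 2.62 for Steap1, 2.60 for Rbpms2 and 2.13 for Sult2a3. The median log2 change was 1.36, against -0.01 over all tested genes. From pachytene to diplotene 4 of the 8, Cd24a, Slco1a6, Gchfr and Rbpms2, had both later libraries above both earlier ones, and the other 4 overlapped. The share of all tested genes with such an order was not obtained for these 2 steps. The counts of 7 and 4 thus have no background beside them. For Cd24a and Gchfr the step into meiosis II was of like size in the 2 genotypes, at 1.97 and 1.54 for Cd24a and 1.46 and 1.67 for Gchfr. For Rbpms2, Vgll2 and Gkn2 it was -0.05, 0.06 and 0.18 in WT and 1.24, 2.17 and 1.38 in Cxxc1-null cells. Differences between these steps were not tested.

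Relatives and partners of the 8 genes were tested for the genotype difference. The rule that chose the 8 did not use them, but their lists were drawn up with earlier results of these data known. The counts are therefore not an independent test. Of 67 listed genes 64 were in the table and 24 were expressed enough to test. In pachytene 1 of 24 rose and 0 fell, and in diplotene 0 of 24 passed limma (6 at an unadjusted p under 0.05). In meiosis II 4 rose and 1 fell. Of the 4 that rose, Gch1 and Sult4a1 reached 1 FPKM only in Cxxc1-null libraries, so the filter itself favoured a rise for them. Over all genes, 0.355% passed in pachytene (0.34% higher, 0.0154% lower), 0.787% in diplotene (0.702% higher, 0.0849% lower) and 10.5% in meiosis II (6.14% higher, 4.35% lower). The median over the 24 was 0.00, 0.01 and 0.11, beside 0.04, 0.09 and 0.02 over all genes. When each pair of groups was fitted separately, with 2 libraries on each side, none of these 24 passed at any stage. In that fit the adjusted p was 0.22 for the pachytene call and between 0.051 and 0.11 for those of meiosis II.

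Gch1, which encodes the GTP cyclohydrolase that the Gchfr protein binds, rose with Gchfr in meiosis II. It had 0.673 and 0.731 FPKM in WT and 2.66 and 2.78 FPKM in Cxxc1-null libraries (log2 difference 1.13 ± 0.18, limma adjusted p = 0.0049). No WT library reached 1 FPKM for Gch1, so it passed the filter only through Cxxc1-null libraries. In diplotene the values were 0.250 and 0.181 against 0.952 and 1.43 FPKM (0.84 ± 0.18, limma adjusted p = 0.060), which passed without Cxxc1-null diplotene replicate 1. Of the 6 tested genes of tetrahydrobiopterin synthesis and recycling, Gch1 was the only one to pass in meiosis II, and 0 of 6 passed at the other stages. Pts and Spr, which encode the enzymes after GTP cyclohydrolase, had -0.24 ± 0.43 and -0.26 ± 0.29 in meiosis II.

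Rbpms, the close relative of Rbpms2, rose in pachytene from 7.85 and 7.23 to 16.8 and 16.8 FPKM (log2 difference 1.06 ± 0.18, limma adjusted p = 0.047). This call was lost without any 1 of the 4 pachytene libraries (limma adjusted p = 0.12 to 0.29) and without either library of WT diplotene, WT meiosis II or Cxxc1-null meiosis II (0.079 to 0.085), with log2 values between 1.01 and 1.11 throughout. In diplotene Rbpms had 13.9 and 14.8 against 23.9 and 22.4 FPKM, and in meiosis II 13.4 and 14.1 against 15.0 and 15.7. Its difference thus became smaller over the stages (1.06, 0.66 and 0.15) where that of Rbpms2 became larger. The change of the Rbpms difference from pachytene to meiosis II was -0.91 ± 0.26, which did not pass (limma adjusted p = 0.18).

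Among sulfotransferases, Sult5a1 rose in meiosis II from 1.35 and 2.59 to 10.6 and 19.5 FPKM (2.41 ± 0.40, limma adjusted p = 0.0060). The brain sulfotransferase gene Sult4a1 rose there from 0.527 and 0.429 to 1.47 and 1.76 FPKM (0.82 ± 0.17, limma adjusted p = 0.016). No WT library reached 1 FPKM for Sult4a1, which passed the filter only through Cxxc1-null libraries. Leaving out WT meiosis II replicate 1 or Cxxc1-null meiosis II replicate 2 ended the Sult5a1 call (limma adjusted p = 0.055 and 0.059), and leaving out any 1 of the 4 meiosis II libraries ended that of Sult4a1 (0.059 to 0.11). Sult2a4 had 3.55 and 1.69 FPKM in WT and 1.18 and 1.24 FPKM in Cxxc1-null pachytene (-0.66 ± 0.30, limma adjusted p = 0.46) and 0.17 ± 0.30 in meiosis II. Sult2a2 and Sult2a6 were listed at 0 in all 12 libraries, and Sult2a1, Sult2a5 and Sult2a7 did not exceed 0.763 FPKM in any.

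Hmgb1, which encodes a chromatin protein that can act as a partner of CD24 outside the cell, rose in meiosis II from 25.9 and 19.2 to 37.0 and 55.1 FPKM (0.98 ± 0.25, limma adjusted p = 0.032). The call did not hold without WT meiosis II replicate 1 or 2 or Cxxc1-null meiosis II replicate 2 (limma adjusted p = 0.071, 0.17 and 0.22), nor without either Cxxc1-null pachytene or either WT diplotene library (0.050 to 0.051). The CD24 receptor gene Siglecg was listed at 0 in all 12 libraries. Of the BRICHOS family, Itm2c fell from 10.3 and 11.01 to 4.55 and 3.51 FPKM in meiosis II (-1.22 ± 0.32, limma adjusted p = 0.038), and without any 1 of the 4 meiosis II libraries, or any 1 Cxxc1-null pachytene or WT diplotene library, it did not pass (0.057 to 0.21). Gkn3 was listed at 0 in all 12 libraries, and Gkn1 was at or under 0.393 FPKM.

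The Slco1a copies beside Slco1a6, namely Slco1a1, Slco1a4 and Slco1a5, did not exceed 0.369 FPKM in any library. The 4 tested relatives of Slco1a6, Slco3a1, Slco6b1, Slco6c1 and Slco6d1, did not pass limma at any stage. In meiosis II the values were -0.10 ± 0.28 for Slco3a1 and -1.07 ± 0.41 for Slco6d1. Steap2, adjacent to Steap1, had -0.01 ± 0.31, -0.23 ± 0.31 and -0.50 ± 0.31 over the stages and did not pass. Steap4, the third gene after Steap1, was too low to test, with 0.0244 and 0.137 FPKM in WT and 0.829 and 1.22 FPKM in Cxxc1-null meiosis II. Of the Vgll and Tead group, Vgll3, Vgll4, Yap1 and Wwtr1 were tested and did not pass, and no Tead gene was expressed enough to test.

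**Figure D4:**
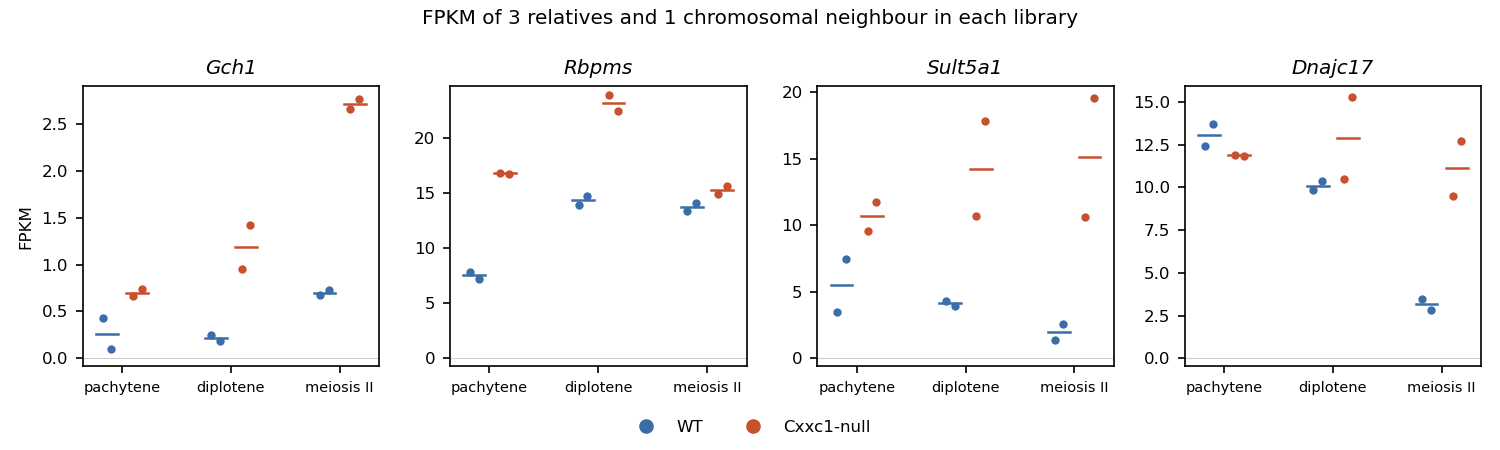
FPKM (linear axis from 0, one scale per gene) of Gch1, Rbpms, Sult5a1 and Dnajc17 by stage, with libraries as points and means of 2 as short lines, WT in blue and Cxxc1-null in orange. Gch1 and Sult5a1 are farthest apart between genotypes in meiosis II, Rbpms is closest there, and Dnajc17 differs in meiosis II, where its WT libraries are at 3.48 and 2.82 FPKM.

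Genes beside the 8 on the chromosome were tested for the same difference. The 3 nearest table genes on each side gave 48 neighbours, of which 22 could be tested. Pachytene and diplotene each had 0 of 22 passing limma (2 at an unadjusted p under 0.05 at each stage), and in meiosis II 2 rose and 1 fell, beside the 6.14% and 4.35% of all genes that did so. With 22 genes these counts are near that background. The medians over the 22 were 0.02, 0.00 and 0.09. Dnajc17, which follows Gchfr and encodes a J-domain protein, had 3.48 and 2.82 FPKM in WT and 9.52 and 12.7 FPKM in Cxxc1-null meiosis II (1.54 ± 0.24, limma adjusted p = 0.0046). In pachytene it had -0.13 ± 0.24, and the change of its difference from pachytene to meiosis II, 1.66 ± 0.34, did not pass over all genes (limma adjusted p = 0.12). Near Rbpms2, Plekho2 fell from 2.74 and 2.07 to 0.886 and 0.495 FPKM (-1.01 ± 0.16, limma adjusted p = 0.0051). Plekho2 reached 1 FPKM only in the WT meiosis II libraries, so the filter itself favoured a fall for it. Trip4, which encodes a transcriptional coactivator, rose from 8.54 and 10.3 to 16.0 and 16.1 FPKM (0.71 ± 0.20, limma adjusted p = 0.048).

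Without Cxxc1-null meiosis II replicate 2 none of these 3 neighbours passed (limma adjusted p = 0.052 for Dnajc17, 0.055 for Plekho2 and 0.20 for Trip4). Plekho2 did not reach the expression filter without either WT meiosis II library, so it has no value there. Trip4 also lost its call without any other single library except those of WT pachytene (0.063 to 0.26). In the separate fit of meiosis II libraries none of the 22 passed (0.056, 0.073 and 0.13 for the same 3). The neighbours tested beside Cd24a, Slco1a6, Steap1, Vgll2, Sult2a3 and Gkn2 did not pass at any stage, and for the last 3 and Slco1a6 only 1 or 2 could be tested. The neighbour closest to the Vgll2 pattern in size, 4933411G06Rik, had 1.18 ± 0.40 in pachytene and 1.22 ± 0.40 in diplotene (limma adjusted p = 0.30 and 0.20) but 0.00 ± 0.40 in meiosis II, the stage where Vgll2 differed most. It was singled out after its values were seen.

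**Figure D5:**
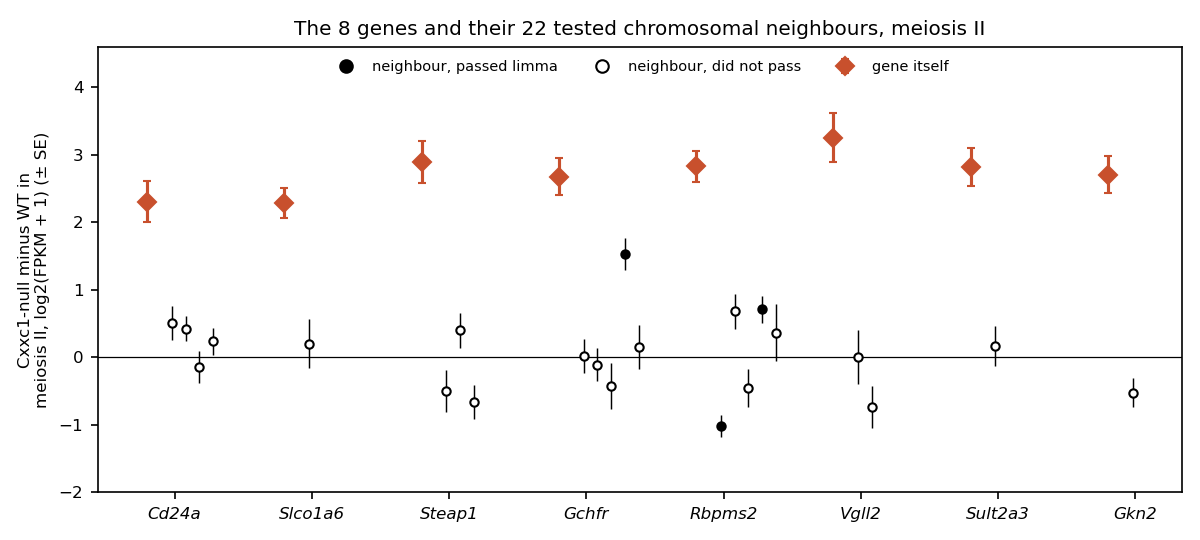
Cxxc1-null minus WT difference in meiosis II on the log2(FPKM + 1) scale (SE bars) for each of the 8 genes (orange diamonds) and its tested chromosomal neighbours (circles, filled where limma passed). The genes lie between 2.28 and 3.25 and their 22 neighbours between -1.01 and 1.54.

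For each gene the 3 tested genes with the most similar profile were found by Pearson correlation of log2(FPKM + 1) over the 12 libraries. These libraries share stage and genotype, so the values describe likeness of pattern and have no p. Cd24a was most like Clnk, an immune signalling adaptor gene (r = 0.989), Prkra, whose protein activates the kinase PKR (0.968), and Gchfr (0.964). Slco1a6 was most like the defensin gene Defb41 (0.968), Mira (0.963) and the vomeronasal receptor gene Vmn1r40 (0.963). Clnk followed Cd24a at a far lower level, with 0.363 to 2.13 FPKM in WT libraries and 2.11 to 5.38 in Cxxc1-null ones. Vmn1r40 and Defb41, like Slco1a6, were high in Cxxc1-null libraries at all stages, with 5.15 to 9.03 and 7.90 to 14.2 FPKM there.

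Steap1 was most like the serotonin receptor gene Htr1f (r = 0.965), the growth factor gene Bmp4 (0.963) and 2610016A17Rik (0.962). The last of these was also first for Sult2a3 (0.974), followed by Gm16062 (0.947) and Ppfibp1 (0.945). Gchfr was most like Gapt (0.984), Tmem108 (0.982) and the transcription factor gene Gata6 (0.982). Gata6 had 2.30 and 2.86 FPKM in WT and 13.8 and 20.8 FPKM in Cxxc1-null meiosis II. Rbpms2 was most like Gm5475 (0.981), the receptor phosphatase gene Ptprk (0.978) and the homeobox gene Pbx3 (0.975). Vgll2 was most like Nebl, which encodes a muscle thin-filament protein (0.977), the mucin gene Muc15 (0.975) and the zinc finger gene Sall1 (0.968). Gkn2 was most like G630090E17Rik (0.972), the interferon-inducible gene Ifi202b (0.963) and Steap1 (0.962). Between members, r ranged from 0.715 (Slco1a6 with Vgll2) to 0.964 (Cd24a with Gchfr). The members were chosen for Cxxc1-null above WT, which itself favours high r between them. For each member, between 28 (Slco1a6) and 125 (Gchfr) other tested genes had r of 0.9 or more. Mira, Htr1f, Bmp4, 2610016A17Rik, Gm5475, Ptprk, Nebl, Muc15, Sall1, G630090E17Rik and Ifi202b did not reach 1 FPKM in any WT library. They passed the filter only through Cxxc1-null libraries.

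Marker genes of the sorted cells and of cells that could accompany them were summed per library. Fewer cells of a type and less RNA per cell cannot be told apart in such sums. The 10 spermatocyte markers, all in the table, summed to 9875 and 15830 FPKM in WT and 11958 and 12555 in Cxxc1-null pachytene. Ldhc made up most of the spermatocyte sum at every stage. Cxxc1-null sums were below WT sums in diplotene (9654 and 10026 against 10987 and 12771 FPKM) and in meiosis II (8103 and 9325 against 9627 and 10861 FPKM), where Mybl1 fell (-1.05 ± 0.28, limma adjusted p = 0.039). The 8 spermatid markers, all in the table, summed to 7174 and 10111 FPKM in WT and 1908 and 4128 FPKM in Cxxc1-null meiosis II. There 0 of 8 passed limma (median -1.68, beside 0.02 over all genes). Prm1, Prm2, Tnp1 and Tnp2 made up most of these sums. Spaca1 and Catsper3, at 0.32 ± 0.45 and 0.29 ± 0.48, were the 2 of the 8 with a positive difference there. In pachytene 4 of the 8 and in diplotene 3 were positive, and 0 of 8 passed at either stage. Acrv1, Spaca1 and Catsper3 lay between 1.46 and 1.89 at both stages. The 12 Sertoli markers in the table (of 13) summed to 9.72 and 26.2 FPKM in WT and 33.4 and 33.8 FPKM in Cxxc1-null pachytene, with Gata4 and Amh at 0 in the latter. Both genotypes overlapped in meiosis II (246 and 328 against 245 and 250 FPKM, mostly Clu). In diplotene the Sertoli sums were 8.15 and 10.4 FPKM in WT and 10.5 and 15.2 FPKM in Cxxc1-null libraries. Of the 8 tested Sertoli markers 8 had a positive difference in pachytene (median 0.62, beside 0.04 over all genes). There 0 of 8 passed limma, with 4 at an unadjusted p under 0.05. In diplotene 4 were positive (median 0.01, beside 0.09) and in meiosis II 3 (median -0.27, beside 0.02). Dhh was among the 3 of meiosis II and rose there from 4.64 and 6.89 to 12.6 and 16.4 FPKM (1.21 ± 0.25, limma adjusted p = 0.015). Dhh had 1.14 ± 0.25 in pachytene and 1.07 ± 0.25 in diplotene (limma adjusted p = 0.10 and 0.078). The 9 Leydig markers, all in the table, summed to 9.39 and 30.5 FPKM in WT and 31.0 and 51.2 in Cxxc1-null pachytene. Their sums were 38.4 and 68.7 against 12.4 and 22.8 in diplotene, and 48.5 and 272 against 103 and 188 in meiosis II. Insl3 made up most of the Leydig sum at every stage. The 5 peritubular markers summed to 4.39 and 5.38 FPKM in WT and 7.70 and 10.4 in Cxxc1-null pachytene. The 10 spermatogonial markers summed to 116 and 134 FPKM in WT and 80.5 and 98.5 in Cxxc1-null pachytene. In diplotene they summed to 52.2 and 62.4 against 33.4 and 39.7 FPKM. Id4 made up most of the sums at these stages. In meiosis II the sums overlapped (20.5 and 22.2 against 17.3 and 22.5 FPKM), and Id4 fell (-1.39 ± 0.25, limma adjusted p = 0.0091). Of the 8 tested spermatogonial markers 6 had a positive difference in pachytene, 5 in diplotene and 5 in meiosis II. The 5 endothelial markers summed to 0.556 and 0.825 FPKM in WT and 1.57 and 2.05 FPKM in Cxxc1-null meiosis II, and to at most 1.23 FPKM at the other stages. The 8 blood and macrophage markers in the table (of 9) summed to 2.43 and 7.76 FPKM in WT and 3.33 and 6.70 FPKM in Cxxc1-null meiosis II. There the macrophage marker Emr1 rose from 0.967 and 0.527 to 2.79 and 1.84 FPKM (0.92 ± 0.18, limma adjusted p = 0.013). No WT library reached 1 FPKM for Emr1, so it passed the filter only through Cxxc1-null libraries. It was the only 1 of the 3 tested with a positive difference, beside Lyz2 (-0.60 ± 0.56) and C1qa (-0.29 ± 0.30). Of the 6 epididymal markers Lcn5 and Lcn8 were at 0 in both libraries of every group. The part of these cell types in the levels of the 8 genes was not tested.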

How the data were processed

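The authors deposited 1 table of FPKM values for 23235 genes in 12 RNA libraries, made with Smart-seq2 from 500 cells each per the labels' protocols. The submitters' processing notes name TopHat2 2.1.1, Cufflinks 2.2.1 and mm9, without their role. Read depth and strand are not stated in any label. Low-value ratios between libraries agreed (within 0.01 on the log2 scale) for at most 22.7% of genes, so no reads were recovered.

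Values were transformed to log2(FPKM + 1). The 12956 genes reaching 1 FPKM in 2 or more libraries entered 1 limma 3.58.1 fit in R 4.3.3, with a mean per stage and genotype, 6 residual degrees of freedom, trended moderated variances and Benjamini-Hochberg adjustment over all of these genes (threshold 0.05). The fit was tested on simulated data. Differences are Cxxc1-null minus WT or later minus earlier stage, ± SE.

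The members and lists were chosen with earlier results of these data known. Named genes are the 8 members, the 3 most similar profiles for each, and neighbours, family and partner genes with adjusted p under 0.05; up to 3 near paralogs by protein identity were also planned, but no protein sequences were used here, so the gene families stand in for them. Neighbours, chromosomes and promoters come from RefSeq tables of GRCm38.p6, used for names, order and promoter sequence; 22993 symbols matched. Alternatives were a pseudocount of 0.1, no filter, a 5 FPKM filter, quantile or median scaling, a replicate block, separate fits and leaving out libraries.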

Additional observations from a re-analysis of the deposited data

How the results depend on the processing

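With 2 libraries per group and unknown read depth, values under 1 FPKM are the least certain. The median log2 difference of the 8 genes was 2.73, 2.80 and 3.39 with a pseudocount of 0.1, and without any 1 library it was 1.63 to 1.79, 1.88 to 1.99 and 2.63 to 2.81 in pachytene, diplotene and meiosis II. The WT rises of Cd24a and Gchfr into meiosis II passed under every alternative. The number of the 8 called in WT from pachytene to diplotene was 1 (Cd24a) without both libraries that stand apart, WT pachytene replicate 2 and Cxxc1-null diplotene replicate 2, and 0 to 1 without any 1 library. From diplotene to meiosis II it was 4 with a pseudocount of 0.1 and 4 under quantile normalization, where Rbpms2 (-0.57) and Sult2a3 (-0.89) fell, and 2 to 3 without any 1 library.

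The number of relatives called in pachytene was 0 without an expression filter, under quantile normalization, with a common median, in a separate fit and without both libraries that stand apart, and 0 to 1 without any 1 library. In diplotene it was 0 to 1 without any 1 library. In meiosis II a pseudocount of 0.1 left 3, a filter of 5 FPKM left 3, with fewer genes tested, and it was 0 in a separate fit and 1 to 5 without any 1 library. Neighbours called in meiosis II numbered 1 above 5 FPKM, 0 in a separate fit and 0 to 4 without any 1 library. The labels tie same-numbered libraries by nothing but the number. Replicate deviations correlated between -0.25 and 0.42 over the pairs of groups, and between 0.12 and 0.42 over those of 1 genotype. With a replicate block Steap1 passed in the WT step into meiosis II (limma adjusted p = 0.011), 1 relative, Sult5a1, was called in diplotene and 7 in meiosis II, and the other counts and calls of named genes in the block fit were as before.

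Some WT steps that did not pass changed sign; the cause was not tested. From pachytene to diplotene Steap1 was 0.18 under quantile normalization, 0.10 with a common median and 0.27 without both libraries that stand apart, where Sult2a3 was -0.042 and Gkn2 -0.054. Without any 1 library Steap1 ranged from -0.47 to 0.27, Gchfr from -0.17 to 0.22, Rbpms2 from -0.10 to 0.18, Sult2a3 from -0.042 to 0.33 and Gkn2 from -0.054 to 0.19. From diplotene to meiosis II, after quantile normalization and then after scaling to a common median, Slco1a6 was -0.50 and -0.27, Vgll2 -0.21 and -0.24, and Gkn2 -0.25 and -0.11. Without any 1 library Slco1a6 ranged from -0.21 to 0.26, Rbpms2 from -0.26 to 0.17, Vgll2 from -0.11 to 0.22 and Gkn2 from -0.21 to 0.57.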
